A study of Drosophila melanogaster with 2 samples.

Results

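The regions described here are the exonic peaks of CG3847 that lie away from any transcription start site (TSS) in Drosophila melanogaster embryos. They are the peaks of the pooled optimal set whose summit was more than 500 bp from every annotated TSS and lay in an exon of any transcript. There were 258 such peaks among the 6148 optimal peaks on the major chromosomes, or 4.20% (exact binomial 95% interval 3.71 to 4.73%), and they made up 10.2% of the 2537 peaks over 500 bp from a TSS. Among them 131 summits lay in coding exons, 31 in 5′ UTRs, 51 in 3′ UTRs and 45 in other exons, 44 of which belonged to non-coding RNA genes. The data come from chromatin immunoprecipitation and sequencing of whole transgenic embryos, 0 to 24 h old, that carried CG3847 fused to eGFP, with an antibody against GFP. There was 1 group with biological replicates 1 and 2, so no condition was compared and no test across samples could be made. Control libraries were not used here, so CG3847 binding and any background enrichment cannot be told apart, and a whole embryo mixes all its cell types. The sources used here do not give read depth, and every interval covers the counting of peaks, windows or genes only.

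CG3847 encodes a zinc finger protein, a class in which short zinc-binding fingers contact DNA bases. Peaks of such proteins are usually looked for at promoters and enhancers, which lie mostly in non-coding DNA. Exons away from a start site are a different ground: coding exons carry codons and are rich in G and C in this species, UTRs carry signals for translation and mRNA stability, and long non-coding RNAs have exons without a reading frame.

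Examples of 3 kinds of sequence, at these summits or within 100 bp of them, are printed from the RefSeq copy of the Release 6 genome (dm6). They read 5′ to 3′ on the strand of the host gene. The first set shows summits of 5 of the strongest exonic peaks, with the summit base in capitals.
lncRNA:CR44619, non-coding exon, chrX:12754506-12754535: tttaagctaactataCcataaaacaaatta
CG7872, 3′ UTR, chrX:15579764-15579793: cctacctggctggtcAcaaaaaaagcacgc
lncRNA:CR44363, non-coding exon, chr3L:11406051-11406080: attggtatttattttTaagagatctcaaag
lwr, 3′ UTR, chr2L:540607-540636: atgtcgtcataacaTttttcgctaatctgg
lncRNA:CR44603, non-coding exon, chr2L:1624935-1624964: gatcttagtacaatTttctattatttgata
The GC content within 100 bp of these 5 summits lay between 28.9% for lwr and 46.3% for CG7872. Sequence is shown for a part of the strongest peaks, and the coding-exon peak of otp, with 56.7% GC, and the 5′ UTR peak of Fbl6, with 50.2%, also rank among them.

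The second set shows stretches within 100 bp of coding-exon summits that hold the opa repeat, with the 8 letters CAGCAGCA in capitals. The opa repeat is a run of CAG triplets that can encode glutamine, depending on the reading frame, which was not checked here. A stretch need not hold the summit itself.
InR, the insulin receptor, chr3R:21580242-21580271: agcagtagcaaCAGCAGCAgctgtcaagca
Antp, a Hox transcription factor, chr3R:6909661-6909690: tggaccagcagCAGCAGCAccaggtctact
Sb, a membrane serine protease, chr3R:16142941-16142970: tccagcagttcCAGCAGCAgcggaatcgtc
CG11902, chr3R:25339640-25339669: cgtataaactgCAGCAGCAcatgcgaattc
These 4 are among the strongest such summits, with pooled signals between 79.9 and 105.3, and their windows held 50.7 to 66.2% GC.

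The third set shows stretches within 100 bp of exonic summits that hold a word that marks the promoter peaks of the same data. The word is given in capitals as read on the strand of the host gene. Here too a stretch need not hold the summit. That of ush lies outside its peak interval, and the word of dos runs past the end of its interval.
ush, 5′ UTR, chr2L:490145-490174: acaagAACTATCGtgactcttggttaaaat
dos, 5′ UTR, chr3L:2590697-2590726: tgtagtgtgccCATCTCTAgagcgttcatt
Eip75B, a nuclear receptor, coding exon, chr3L:17998821-17998850: gccacccacagGTGTGACCatggcgagttc
beat-VI, coding exon, chr3R:28472988-28473017: ttcgctggcgatttTCACACTGgccatggc
baz, 5′ UTR, chrX:17175958-17175987: ttgaatgtagtTCGATAGTtaggtgtctag
These 5 are among the strongest of the few exonic peaks with such a word.

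Exonic peaks were weak peaks, and coding-exon peaks were the weakest. Signal here means the value that the peak caller gave a peak, as deposited, whose scale the sources do not state. It runs higher in the pooled data than in a single replicate. The median pooled signal was 81.7 for the 258 exonic peaks and 132 over all 6148 optimal peaks. By kind of exon it was 75.5 in coding exons, 99.1 in 3′ UTRs, 113 in other exons and 121 in 5′ UTRs. Intergenic peaks had a median of 107, intronic peaks 116 and TSS-proximal peaks 154. The 5′ UTR and other-exon peaks thus lay in the range of intronic and intergenic peaks, while the coding-exon peaks had quartiles of 68.6 and 82.2.

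**Figure D1:**
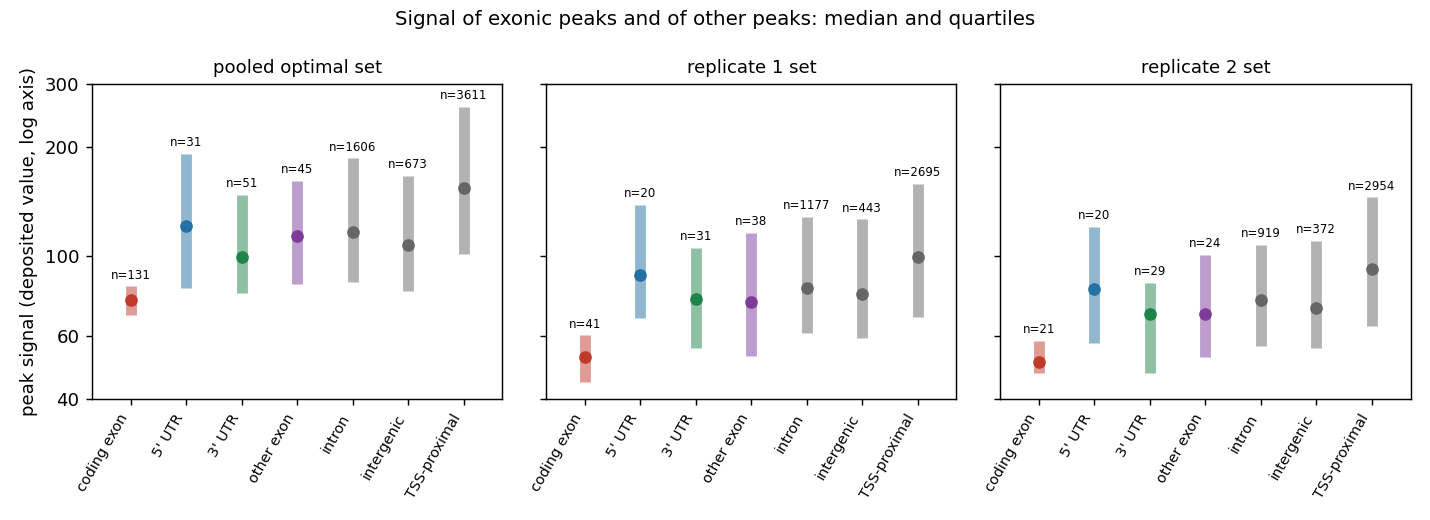
Peak signal (deposited value, log axis) by position of the summit in the pooled optimal set and in the thresholded set of each replicate; points are medians, bars run from the lower to the upper quartile, and n is the number of peaks. Coding-exon peaks have the lowest median in all 3 sets (75.5, 52.5 and 50.7).

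The same order at the low end appeared in each replicate taken alone. The thresholded set of replicate 1 held 130 exonic peaks, 2.92% of 4445, with a median signal of 64.1, against 90.7 over all peaks of that set. The set of replicate 2 held 94 exonic peaks, 2.17% of 4339, with a median of 67.0, against 84.8 over all peaks of that set. Coding exons held 41 of the peaks in replicate 1 and 21 in replicate 2, with medians of 52.5 and 50.7. Coding exons thus made up a smaller part of the exonic peaks in a single replicate than in the pooled set.

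The exonic share fell as peaks became stronger. When all optimal peaks were ordered by signal and split into 5 bins of equal number, exonic summits made up 19.1% of the peaks over 500 bp from a TSS in the weakest bin. The share was 8.43%, 7.0%, 4.65% and 5.10% in the next 4 bins. Coding exons carried this trend: the weakest bin held 77.1% of the 131 coding-exon peaks, and the next 4 bins held 23, 3, 3 and 1 of them. The peaks in UTRs and other exons numbered 37, 27, 32, 16 and 15 from the weakest bin to the strongest. Of the 100 strongest optimal peaks 0 were exonic, and 4 exonic peaks were among the 500 strongest. Below the thresholds the exonic share was higher still: of the ranked summits over 500 bp from a TSS that no thresholded set overlapped, 30.2% were exonic in the pooled data, 30.9% in replicate 1 and 31.7% in replicate 2. In genome sequence over 500 bp from a TSS, exons held 22.2% of the bases and coding exons 15.4%.

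**Figure D2:**
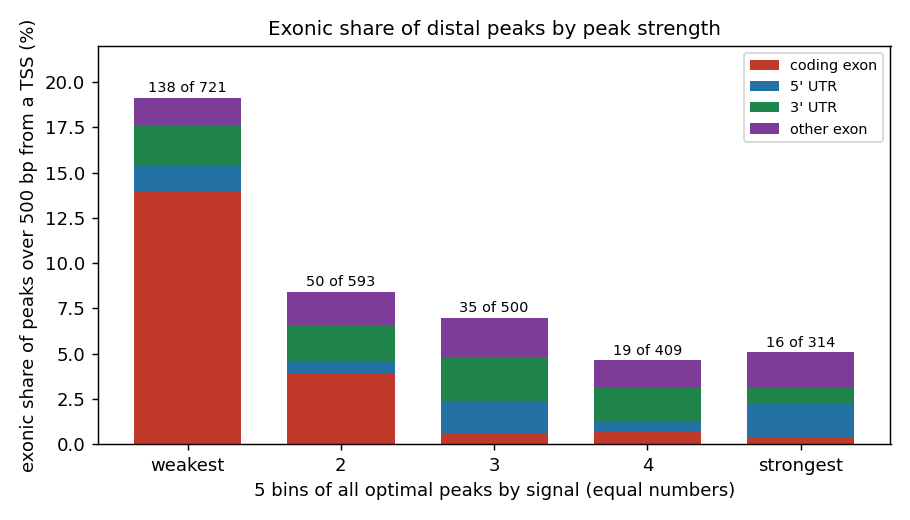
Exonic share (%) of the optimal peaks over 500 bp from a TSS, in 5 bins of signal from weakest to strongest, stacked by kind of exon, with the exonic count of all such peaks above each bar. The share was 19.1% in the weakest bin and 5.10% in the strongest, and coding exons make up most of the first bar.

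Per length of sequence, the kinds of exon differed widely. Over 500 bp from a TSS, coding exons held 7.11 optimal peaks per Mb and 3′ UTRs 8.60 per Mb, against 17.3 per Mb in intergenic and 29.9 per Mb in intronic sequence. The 5′ UTRs held 29.7 per Mb and other exons 39.9 per Mb, at or above the intronic value. In replicate 1 alone the values were 2.22, 5.23, 19.2 and 33.7 per Mb for coding exons, 3′ UTRs, 5′ UTRs and other exons, against 21.9 per Mb in introns. In replicate 2 they were 1.14, 4.89, 19.2 and 21.3 per Mb, against 17.1 per Mb in introns. Coding exons were therefore the sparsest class in both replicates, and 5′ UTRs and other exons were close to or above introns in both. Peaks in 5′ UTRs and other exons lay nearer to a TSS, at medians of 817 and 1071 bp, against 2530 bp for intronic peaks. The densities were not adjusted for this distance.

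Few exonic peaks were in the thresholded sets of both replicates. Of the 258 exonic peaks, 57 overlapped a peak of both replicate sets by at least 1 bp, or 22.1% (17.2 to 27.7%), against 55.1% of all optimal peaks. By kind of exon the number was 5 of 131 in coding exons (3.82%), 17 of 51 in 3′ UTRs (33.3%), 19 of 45 in other exons (42.2%) and 16 of 31 in 5′ UTRs (51.6%). Intergenic peaks reached 42.6%, intronic peaks 47.5% and TSS-proximal peaks 63.1%. No peak of either replicate set overlapped 137 of the exonic peaks, or 53.1%, against 19.8% of all optimal peaks, and 100 of these 137 lay in coding exons. The conservative set overlapped 175 exonic peaks, or 67.8%, against 87.5% of all optimal peaks. The set of replicate 1 overlapped 105 exonic peaks and that of replicate 2 overlapped 73, counting those in both.

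Low signal went together with absence from the replicate sets, and in the weakest bin of signal the share in coding exons was the lowest of the classes. In the weakest bin, 0 of the coding-exon peaks were in both replicate sets, which allows up to 3.59% by the exact interval. The same share was 1 of 37 for peaks in UTRs and other exons, 4.04% for intergenic, 6.75% for intronic and 15.9% for TSS-proximal peaks of that bin. In these classes and in coding exons the medians of pooled signal lay between 70.3 and 72.5. The classes were not matched in their weakest entries. Of the 241 optimal peaks with a signal under 50, all in this bin, 235 overlapped a stronger optimal peak. Such an entry can overlap the same replicate peak as its stronger neighbour. These entries numbered 6 in coding exons, against 66 of the 385 intronic, 28 of 198 intergenic and 133 of 509 TSS-proximal peaks. The shares were not computed without them. The set of replicate 2 held 1 of the coding-exon peaks of the bin, or 0.99%, against 13.5% of the bin's 385 intronic peaks. The set of replicate 1 held 10 of the coding-exon peaks, or 9.90%, against 23.1% of those intronic peaks. In the next bin, 0 of 23 coding-exon peaks were in both replicate sets, against 9.47% of the intronic peaks, and the exact interval of the coding-exon share reaches 14.8%. In that bin coding exons were not low throughout. The set of replicate 1 held 43.5% of their peaks, against 46.3% of intronic and 33.9% of TSS-proximal ones. The conservative set held 91.3% of them, against 85.0% of intronic ones. The interval of the intergenic peaks in the weakest bin, 1.76 to 7.81%, overlaps that of the coding-exon peaks. These shares describe peaks of 2 libraries, and the difference between classes was not tested.

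Signals of the replicates can be compared beyond the thresholds, because each replicate's ranked list holds weak peaks too. A ranked peak was found in both replicates for 251 of the 258 exonic peaks, and for 6067 of all 6148 optimal peaks. The exonic peaks had a median signal of 45.6 in replicate 1 and 40.6 in replicate 2. Replicate 1 was the higher in 189 of the 251, or 75.3%, against 79.1% of intronic, 73.5% of intergenic, 54.2% of TSS-proximal and 63.6% of all optimal peaks. The lean to replicate 1 was thus shared by the peaks over 500 bp from a TSS. Neighbouring entries can take their values from the same replicate peak, as both Mp20 peaks do (54.6 in replicate 1 and 53.0 in replicate 2). The 17 exonic peaks that overlapped a stronger optimal peak were kept in these counts. Spearman's rho and the log2 ratio below use another source, the 2 unnumbered replicate signals given in a pooled ranked list. These were available for 257 exonic and 6123 optimal peaks. Across the exonic peaks Spearman's rho between the replicates was 0.50, against 0.79 across all optimal peaks. It was 0.04 across coding-exon peaks, 0.62 in 3′ UTRs, 0.67 in other exons and 0.79 in 5′ UTRs. The points share the libraries and the selection on pooled signal, and coding-exon peaks span a narrow range of it. The SD of the log2 ratio between the replicates was 0.55 for 257 exonic peaks, against 0.60 for all optimal peaks.

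**Figure D3:**
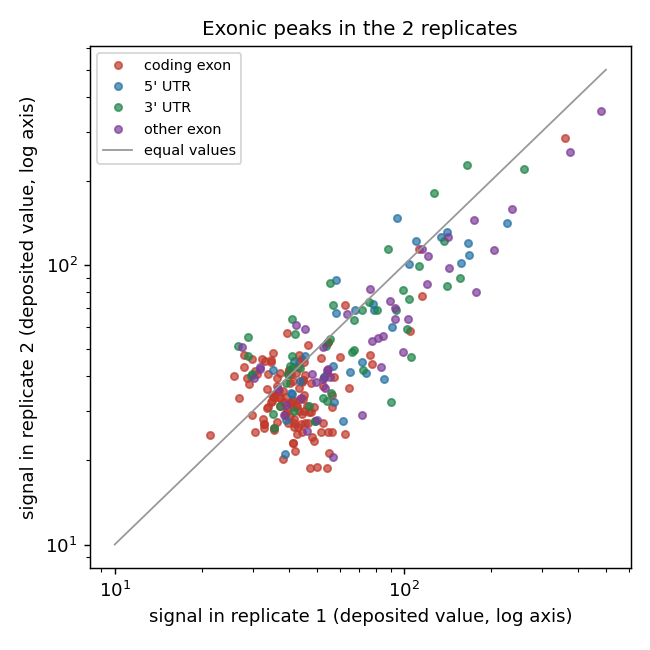
Signal of each exonic peak in replicate 1 (horizontal) and replicate 2 (vertical), deposited values on log axes, 1 point per peak with a ranked peak in both, coloured by kind of exon; the line marks equal values. Of the 251 points 189 lie below the line, and the coding-exon points form a cloud at the low end.

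The strongest exonic peaks were in non-coding RNA exons, UTRs and a few coding exons, and all of the 25 strongest were in both replicate sets. This was general at such signals: 93.5% and 100% of intronic peaks in bins 4 and 5 were in both. The strongest exonic peak was in the single exon of lncRNA:CR46035, a long non-coding RNA (FBgn0267702), with the summit 698 bp from the nearest TSS. Its signal was 828 in the pooled data, 481 in replicate 1 and 355 in replicate 2, and it ranked 128 among all optimal peaks. The last exon of lncRNA:CR44619 (FBgn0265830, X:12751867-12754571) had a pooled signal of 626, with 374 in replicate 1 and 254 in replicate 2. The 3′ UTR of CG7872 (FBgn0030658) had 479 in the pooled data, with 261 in replicate 1 and 220 in replicate 2. In these 3 replicate 1 was the higher, as in 20 of the 25 strongest.

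The 5 exceptions with a higher replicate 2 included both peaks of lwr (FBgn0010602, 2L:540599-542580), which encodes the SUMO-conjugating enzyme. They lay 519 bp apart in its last exon, a 3′ UTR of 570 bp. The stronger had 356 in the pooled data, with 166 in replicate 1 and 228 in replicate 2. The other had 275, with 127 in replicate 1 and 181 in replicate 2. The 5′ UTR peak of ush, a zinc finger cofactor of GATA factors, also had the higher value in replicate 2, with 147 against 95.0 in replicate 1 and 244 in the pooled data. The 5′ UTR of dos, an adaptor of receptor tyrosine kinases, had 110 in replicate 1 and 122 in replicate 2. Over the 25 strongest, the log2 ratio of replicate 2 to replicate 1 ran between -1.15 and 0.63.

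**Figure D4:**
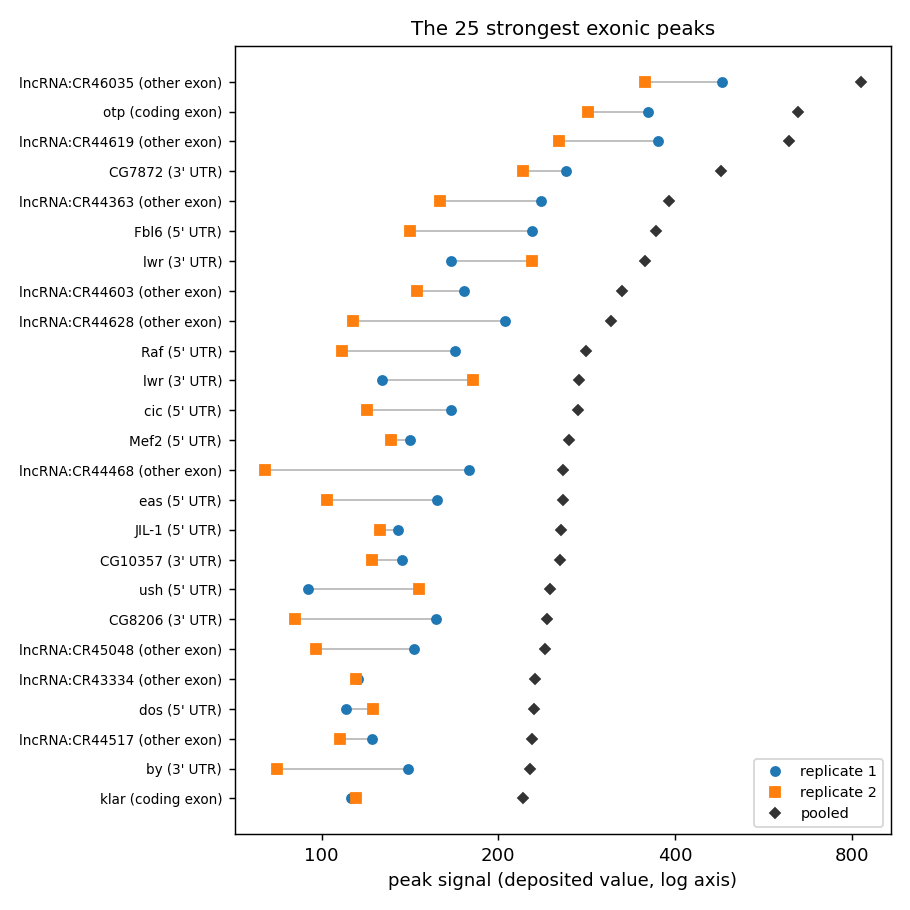
Signal (deposited value, log axis) of the 25 strongest exonic peaks, strongest on top, in replicate 1 (circles), replicate 2 (squares) and the pooled data (diamonds), with the host gene and the kind of exon. Replicate 1 is the higher in 20 of the 25; lwr, with 2 peaks, and ush are among the exceptions.

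Among coding exons a single peak stood far above the rest. It lay in the last exon of otp (FBgn0015524, 2R:20883625-20903414), which encodes a homeodomain transcription factor, 4662 bp from the nearest TSS. Its signal was 647 in the pooled data, 360 in replicate 1 and 284 in replicate 2. The next coding-exon peaks were those of klar, a protein of nuclear migration, with 220 (112 and 114 in replicates 1 and 2), and of l(3)mbn with 184 (115.3 and 77.2). They were followed by Pde1c, a cyclic nucleotide phosphodiesterase, with 164 (105 and 58.0), and CG10962 with 129 (76.4 and 47.5). The peak of scrib, a scaffold of cell polarity, had 128 (62.5 and 72.1), and it was the fifth coding-exon peak found in both replicate sets, beside otp, klar, l(3)mbn and Pde1c. Only 13 of the 131 coding-exon peaks had a pooled signal of 100 or more.

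The strongest 5′ UTR peaks were those of Fbl6, Raf, cic, Mef2, eas and JIL-1. Fbl6, an F-box protein gene, had 370 in the pooled data, with 228 in replicate 1 and 142 in replicate 2. Raf, the kinase of the Ras pathway, had 282 (169 and 109), and cic, a repressor downstream of that pathway, had 273 (166 and 120). Mef2, the transcription factor of muscle differentiation, had 264 (141 and 131). The ethanolamine kinase gene eas had 257 (157 and 102), and the histone kinase gene JIL-1 had 256 (135 and 126). In each of these 6 replicate 1 was the higher, by a margin that was small in Mef2 and JIL-1.

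In 3′ UTRs, the peaks after CG7872 and lwr were those of CG10357 with 254 (137 in replicate 1 and 122 in replicate 2), CG8206 with 242 (157 and 90.2) and the tensin gene by with 226 (141 and 84.0). Among non-coding exons lncRNA:CR44363 had 390 (236 and 159), lncRNA:CR44603 had 325 (175 and 145) and lncRNA:CR44628 had 311 (206 and 113). The largest ratio between replicates among the 25 was in lncRNA:CR44468, with 178 in replicate 1 and 80.0 in replicate 2.

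Some genes held several exonic peaks. When each gene whose exon held a summit was counted, there were 241 host genes, 202 of them protein-coding, and 18 genes held 2 or more exonic peaks, 42 in all. The single-exon lncRNA:CR43334 held 5, spread over 11403 bp, with pooled signals from 73.5 to 231. The polarity gene baz held 3 in its 5′ UTR (120.6, 109 and 84.2), and Cam, the calmodulin gene, held 3 in its 3′ UTR (99.1, 77.7 and 72.5). The gene bun, of the TSC22 family, held 3 peaks, with 79.5, 72.3 and 25.8, and the first and last of these lay 206 bp apart. Eip75B held 2 in coding exons 39187 bp apart (103.7 and 73.6), and Antp held 1 in a coding exon (87.2) and 1 in its 3′ UTR (76.8). The muscle gene Mp20 held 2 in coding exons 202 bp apart (91.7 and 78.3).

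Several of these pairs are neighbouring entries of the peak list. All 14 exonic peaks with a signal under 50 overlapped a stronger optimal peak. Their pooled signals lay between 4.08 and 29.7, and the next exonic peak had 50.7. They included the second coding-exon entries of pros, Lim1 and fzy. Within 1000 bp of an exonic summit there was another optimal summit in 60 cases, or 23.3%, against 23.4% of all optimal peaks.

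The exons that held a summit had a median length of 1088 bp, with 813 bp in coding exons, 922 bp in 5′ UTRs, 1653 bp in 3′ UTRs and 1887 bp in other exons. The exon was the first of its transcript in 29 cases, an internal one in 92, the last in 97 and the only one in 40. The whole peak interval was exonic in 155 cases, and less than 50% of it in 4. In 63 cases the summit lay within 100 bp of an exon's edge. The 63-bp exon of l(3)mbn is an example at the short end: only 36.4% of its peak interval was exonic. Some of the 25 strongest also lay near an edge, at 50 bp in lncRNA:CR44619, 26 bp in lncRNA:CR44628 and 24 bp in CG8206. Their peak intervals were 63.2%, 57.9% and 66.0% exonic, while those of lncRNA:CR46035 and otp were wholly exonic. The position was exonic in every transcript that spans it for 202 peaks and in some of them for 56. The strongest exonic peak, in lncRNA:CR46035, was among these 56. In 7 cases the summit lay in exons of more than 1 gene, among them that of CG10962, shared with lncRNA:CR43836, and the coding-exon peak of Antp, shared with CG46458. Whether a position counts as exonic in some transcripts depends on which transcripts an annotation lists, and 18 of the 31 peaks in 5′ UTRs were of that kind.

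The median distance from an exonic summit to the nearest TSS was 1489 bp, with 80 within 1000 bp, 97 beyond 2000 bp and the farthest at 33656 bp. Coding-exon summits were farther, at a median of 1872 bp. The exonic peaks nearest beyond the 500-bp limit were in lncRNA:CR44517 at 504 bp (pooled signal 229), lncRNA:CR46204 at 506 bp (96.0) and asRNA:CR45171 at 511 bp (81.7). The exonic summits nearest within it were in asRNA:CR45600 at 495 bp (105.0), CG31259 at 493 bp (83.8) and CG8620 at 492 bp (73.4). In all, 884 exonic summits lay within 500 bp of a TSS and are not part of the set. By chromosome the exonic peaks numbered 59 on 2L, 48 on 2R, 61 on 3L, 56 on 3R and 34 on X, with 0 on 4 and Y, where the optimal set had 2 and 1 peaks. The exonic share of the optimal peaks ran from 3.07% on X to 5.20% on 2L.

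Hosts of exonic peaks often had a promoter peak too. With 1 host per summit there were 196 protein-coding hosts, of which 98, or 50% (42.8 to 57.2%), had an optimal summit within 500 bp of a TSS of their own, against 31.0% of all protein-coding genes. Among the 940 protein-coding genes with an intronic peak over 500 bp from a TSS the share was 53.0%, close to that of the exonic hosts. The share was 48.4% for the hosts of coding-exon peaks, 69.0% for those of 5′ UTR peaks and 43.5% for those of 3′ UTR peaks. The strongest coding-exon host, otp, had no promoter peak, nor did lwr, while Raf and CG7872 had one.

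Coding-exon peaks had a higher median GC content than every other class of peak. The median GC content of the window at the summit, 100 bp to either side of it, was 51.7% for exonic peaks and 37.3% for all optimal peaks. It was 60.2% in coding exons, 42.3% in 5′ UTRs, 39.3% in 3′ UTRs and 37.3% in other exons. Intronic summits had 35.8%, intergenic 36.8% and TSS-proximal 37.8%. Coding exons over 500 bp from a TSS, tiled in windows of the same length, had a median of 54.2%, so the coding-exon summits stood above coding sequence at large. Of the 131 coding-exon windows 99 held at least 55% GC, or 75.6%, against 3.11% of the 1606 intronic windows. The windows 1000 bp to either side of the exonic summits had a median of 42.5%.

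Windows at intronic summits were lower in GC than their own surroundings, with 35.8% against 40.3% at 1000 bp to either side. Weak intronic peaks were higher in GC than strong ones, at 41.3% in the weakest of the 5 bins of signal and 34.3% in the strongest, and in the weakest bin coding-exon peaks stood at 60.2%. Ranked coding-exon summits outside every thresholded set, 25867 in all, had a median GC content of 54.7%, near that of coding tiles. Within coding exons GC content and signal were almost unrelated across peaks (Spearman's rho 0.03, n = 131), and across all 258 exonic peaks rho was -0.49, with most of the high-GC peaks in coding exons. These are descriptions across peaks of the same libraries, and the part of base composition in the signal was not tested.

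**Figure D5:**
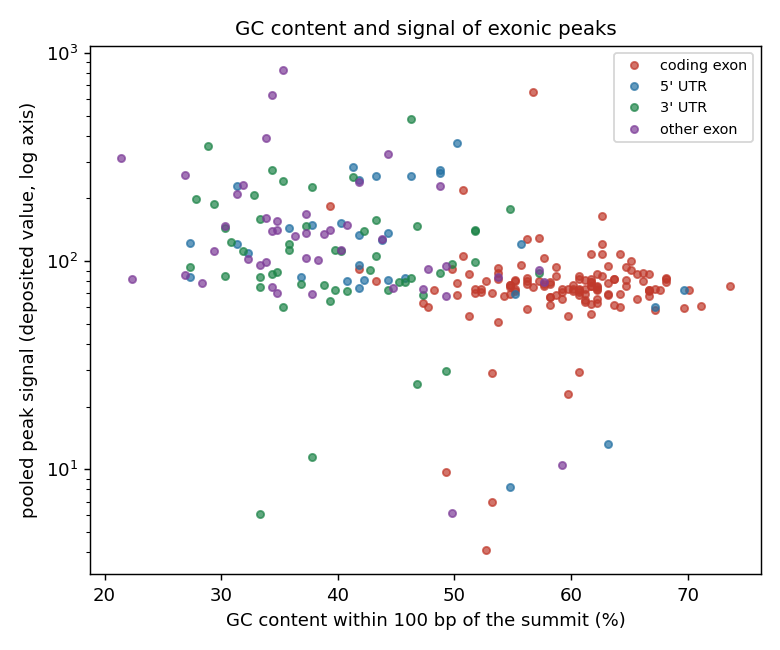
GC content (%) within 100 bp of the summit against pooled signal (deposited value, log axis) for the 258 exonic peaks, coloured by kind of exon. Coding-exon peaks gather at high GC and low signal, around medians of 60.2% and 75.5, and otp is the coding-exon point at 647.

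Of the 15 words searched for on both strands, the opa repeat, CAGCAGCA or its reverse complement, was more frequent in exonic windows than around them. It was in 29 of the 258 exonic windows, or 11.2% (7.66 to 15.7%), against 1.98% of all optimal windows and 3.88% of the windows 1000 bp away. Exons of any kind over 500 bp from a TSS, tiled in windows of the same length, had 7.19%, just below that interval. In coding exons 23 of 131 windows held it, or 17.6% (11.5 to 25.2%), against 9.27% of the coding tiles. On the strand of the host gene 22 of these 23 read CAGCAGCA and 1 read its complement. It was in 9.87% of the ranked coding-exon summits outside every thresholded set, close to the tiles. Of the 23 coding-exon peaks with the repeat 1, that of otp, was in both replicate sets. Besides the genes printed above, they included Lim1, Msp300, how, Gsc, bun and pros, with pooled signals from 60.5 to 78.9. The repeat was in 6.20% of the stronger and 16.3% of the weaker 50% of the exonic windows.

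Words known from fly promoters were rare at exonic summits. The word GGTCACACT, known for the factor M1BP, was in 0 of 258 exonic windows, which allows up to 1.42% by the exact interval, against 8.17% of 3611 TSS-proximal windows. TATCGATA, known as the DRE, was in 1 exonic window, that of the 3′ UTR of exu, against 10.3% of TSS-proximal windows. The 10 words of 8 letters with the largest ratio of share at TSS-proximal summits to share 1000 bp away, all in at least 2% of the TSS-proximal windows, were AGTGTGAC, TATCGATA, ATCGATAG, GGTCACAC, ACTATCGA, AACTATCG, CATCTCTA, CAGCCCTG, CAGTGTGA and CCTATCGA, and several overlap each other. At least 1 of these was in 10 exonic windows, or 3.88% (1.87 to 7.01%), against 32.2% of TSS-proximal, 5.35% of intergenic and 3.61% of intronic windows. The windows 1000 bp from the exonic summits had 4.07% and the exon tiles 3.01%, so exonic summits were near the level of sequence around them.

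Those 10 peaks lay in 5′ UTRs of ush, dos and baz, in coding exons of Eip75B, beat-VI, Eip74EF, Lmpt and CG5883, and in 3′ UTRs of exu and CG1648, with 0 of 45 in other exons. The pooled signals of ush and dos were 244 and 230, and those of the other 8 lay between 6.12 and 106.

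Other words differed between the kinds of exon. TATAAA was in 14.3% of exonic windows, against 30.4% of all optimal windows, with 1.53% in coding exons, where the coding tiles had 3.39%, and between 25.8 and 28.9% in 5′ UTRs, 3′ UTRs and other exons. AGATAA, a word of GATA factors, was in 9 of 45 windows in other exons, or 20.0% (9.58 to 34.6%). It was in 13.7% in 3′ UTRs, 3.05% in coding exons and 0 of 31 in 5′ UTRs. All optimal windows had 11.6%, which lies within the interval of the other exons. GAGAGAG, a word of the GAGA factor, was in 5 of 45 windows in other exons, or 11.1% (3.71 to 24.1%), against 3.58% of all optimal windows. CGATA, a core within the DRE, was in 21.3% of exonic windows, 22.7% of the windows 1000 bp away and 44.6% of TSS-proximal windows.

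Among 10 lists of 236 annotated genes, 15 genes held an exonic peak, or 6.36%, against 1.45% of all 13968 protein-coding genes. The lists were chosen with earlier results of these data known, so these values are a description and not an independent enrichment. The lists hold genes with much exonic sequence: the median gene had 4655 bp of exon over 500 bp from a TSS in the muscle list and 5899 bp in the cytoskeleton list, against 1163 bp over all protein-coding genes. Hosts of exonic peaks had a median of 3402.5 bp. Per length, the muscle list held 2.88 peaks per 100 kb of such exon and the cytoskeleton list 2.42, against 0.82 over all protein-coding genes. These rest on 4 and 6 peaks, and 3 of the 6 lay in the 5′ UTR of baz. The heat shock list held 4.76 from 1 peak, the patterning list 1.96 from 2 peaks, both of Antp, and the Notch list 1.82 from 1 peak. The neuronal list held 0.84, the DNA-binding list 0.75 and the receptor list 0.63, and the Polycomb and germline lists held 0.

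The muscle list had 4 of 15 genes with an exonic peak: Mef2, given above, Tm1, how and sls. The tropomyosin gene Tm1 had a 3′ UTR peak with a pooled signal of 72.2 (29.96 in replicate 1 and 40.6 in replicate 2). The RNA-binding gene how had 76.2 (48.1 and 24.2), and sls, which encodes a titin-like protein, had 69.8 (28.7 and 39.5), both in coding exons. The cytoskeleton and adhesion list had 4 of 25: scrib and baz, given above, and the large linker proteins Msp300 (77.6, with 33.0 in replicate 1 and 45.5 in replicate 2) and shot (59.9, with 38.9 and 21.1). Apart from Mef2, both replicates were below 75 in these genes, and neither replicate was the higher throughout.

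The neuronal list had 2 of 24 genes, both encoding axon guidance ligands. NetB had a 3′ UTR peak of 148, with 51.6 in replicate 2 and no ranked peak in replicate 1, and sli a coding-exon peak of 76.0 (31.1 and 40.8). The receptor and signalling list had InR alone of 36, with 105.3 (60.1 and 46.7), and the patterning list Antp alone of 36. The list of DNA-binding regulators had su(Hw), an insulator protein, of 25, with 87.0 (54.2 and 41.2). The Notch list had kuz, a protease of the Notch pathway, of 21, with 86.5 (45.4 and 40.6). The heat shock list had Hsp22 of 14, with a 5′ UTR peak of 84.0 (45.6 and 47.3) that also lay in an exon of CG4456. The 25 Polycomb and chromatin genes and the 15 germline genes had 0. In lists with 1 gene a share cannot be told from the background of 1.45%.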

How the data were processed

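The authors deposited IDR-thresholded and IDR-ranked peak lists on dm6; the sources used here give no aligner or peak caller. The deposited signal is the caller's peak value, the deposited score is the scaled IDR (at most 1000), and other deposited columns give summit offsets in bp. Per the labels, fragments were 200 to 800 bp. Summits were placed on Ensembl release 115 (BDGP release 6, without transposable elements; 18277 genes, 23694 TSS positions), by the first that applied of TSS-proximal, a 5′ UTR, coding sequence, a 3′ UTR, any other exon, an intron and none of these. Replicate signals are those of the strongest overlapping peak in each replicate's ranked list. Spearman's rho and the SD of log2 ratios between replicates instead use the 2 unnumbered replicate signals of a pooled ranked list. Words were searched on both strands of windows of 100 bp to either side of a summit. Shares have exact binomial 95% intervals. Placement and overlap were tested on random positions with Python 3.11.15, pandas 2.3.3 and numpy 2.4.6. Named are the 25 strongest peaks, the 5 strongest per kind of exon, peaks next to the 500-bp limit, up to 4 peaks per list and up to 10 genes with several peaks. The members and gene lists were chosen with earlier results of these data known. Alternatives included other TSS windows, peak sets, window lengths and overlap rules. Some sequences are not reported here.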

Additional observations from a re-analysis of the deposited data

How the results depend on the processing

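Depth and control signal are not known here, which limits how weak peaks can be read. No paired analysis was possible because 1 group holds both replicates. Leaving out a replicate, that is, using the set of the other alone, gave 94 to 130 exonic peaks, with median signals of 64.1 to 67.0. They made up 6.79 to 7.43% of the peaks over 500 bp from a TSS. Of them 49.2 to 66.0% were in both sets, but each lies in its own set by construction. That share counts only overlap with the other replicate's set and cannot be compared with the 22.1% of pooled peaks. Median GC was 42.3 to 42.8%, a listed word was in 60 to 61.7% of windows and the promoter words stayed at 3.19 to 4.62%. The stronger 50% of all peaks left 56 exonic peaks (5.85%), with a median signal of 193 and 87.5% in both sets. The latter share was not computed for all stronger peaks. For intronic peaks it was 64.2%, 93.5% and 100% in bins 3, 4 and 5 of signal. The 56 exonic peaks had a GC of 38.3%, a listed word in 66.1% against 55.8%, and an SD of replicate log2 ratios of 0.51. The coding-exon composition thus rests on peaks of low signal that the thresholded sets of the single replicates mostly lack. In the ranked lists, which also hold weak peaks, 128 of the 131 coding-exon peaks had a peak in both replicates. So did 6067 of all 6148 optimal peaks, so this overlap does not set coding-exon peaks apart. The exonic share of 10.2% was 9.31% in the conservative set, 11.4% and 8.89% with TSS windows of 200 and 1000 bp, 11.5% with protein-coding TSSs, 8.44% with protein-coding exons and 7.96% when exonic in every transcript. The conservative set had a median signal of 84.2 and a TSS distance of 1437 bp, and protein-coding TSSs a distance of 2023.5 bp. Windows of 50 and 200 bp to either side gave GC of 52.5 and 50.2%, a listed word in 32.9 and 80.6% and promoter words in 1.94 and 6.98%. Matching by nearest summit gave an SD of 0.72. Counting peak intervals that touch an exon gave 25 listed genes, and the conservative set 10, against 15. Leaving out 3 peaks whose summit lay outside both component peaks, chosen after seeing the data, gave 255 peaks, a median of 81.8 and 21.96% in both sets. The number of exonic peaks was 368 and 178 with TSS windows of 200 and 1000 bp. The cause of the shifts was not tested beyond what each setting itself changes.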

Other observations

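Some hosts of coding-exon peaks encode homeodomain transcription factors. Those named here were picked out after their values were seen and are not a full list. The share of homeodomain genes among all hosts was not counted. In the list of homeodomain and other patterning factors, 1 of 36 genes held an exonic peak, or 2.78%, against 1.45% of all protein-coding genes. Among the genes named in this paragraph, only the peak of otp was in both replicate sets. Besides otp and Antp, given above, examples are Lim1, hth, Gsc, pros and Ptx1, whose strongest peaks had pooled signals of 78.9, 75.5, 68.5, 60.5 and 59.5. In replicate 1 these peaks had 45.0, 46.8, 35.5, 32.8 and 35.7, and in replicate 2 they had 38.6, 29.9, 34.4, 27.0 and 25.8. The GC content of their windows was 68.2, 57.7, 60.7, 71.1 and 69.7%, against a median of 60.2% over all coding-exon peaks.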
